A study of Rattus norvegicus with 300 samples.

Results

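The nuclear-encoded subunits of oxidative phosphorylation were followed as 80 of the 17337 gene symbols in a count table of 300 rat brain libraries. A row was a member if its symbol was Ndufa, Ndufb, Ndufc, Ndufs or Ndufv with a number, was Sdha, Sdhb, Sdhc or Sdhd, or began with Uqcr, Cox4, Cox5, Cox6, Cox7, Cox8 or Atp5, and no measured value entered that choice. By symbol, 35 members belonged to complex I, 4 to complex II, 8 to complex III, 16 to complex IV and 17 to complex V. The match is one of names: Ndufa4, kept here with complex I, is now placed in complex IV, Cox7a2l is a factor for assembling respiratory supercomplexes, and Cox6c-ps1 is a pseudogene. RefSeq lists Atp5s, kept here with complex V, as Dmac2l and not under an Atp5 symbol. In mean CPM (counts per 1e+06 counts of a library) over all libraries, 78 members exceeded 1 CPM, the exceptions being Cox8c at 0.073 CPM and Cox6c-ps1 at 0.10 CPM. Cox8c did not pass the filter on low counts, leaving 79 members tested over all regions.

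The complexes sit in the inner mitochondrial membrane. Complex I takes electrons from NADH and complex II takes them from succinate, complex III passes them on to cytochrome c, complex IV hands them to oxygen, and complex V, the ATP synthase, uses the proton gradient so formed to make ATP. Neurons draw most of their ATP from this chain, and most of its subunits, including all of complex II, are encoded in the nucleus. The subunits encoded in mitochondrial DNA were not analysed here.

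The rats were male Long Evans animals, 60 days old, and received their treatment in drinking water over 3 weeks. The Control group had plain water, and the Maltodextrin group had water with 10 g/L of this sugar, the carrier of the probiotic. Daily doses were 13 mg/kg for FT, 15 mg/kg for Bupropion and 7.5 mg/kg for Desipramine, and the Probiotics dose, which the labels give in forms that disagree, is not printed. The labels do not spell out FT, and fluoxetine is the drug in the dosing protocol that no other group name stands for. All 3 drugs are antidepressants: fluoxetine blocks the uptake of serotonin, desipramine mainly that of noradrenaline, and bupropion that of dopamine and noradrenaline. Punches were taken from 10 brain regions, abbreviated here as the labels write them (PLC, ILC, CGC, NACShell, BLA, mPOA, dorDG, venDG, Raphe and LConly), giving 60 groups with 5 libraries in each. The punches were pooled by region from a number of rats that the labels do not state. A p-value here therefore speaks of the spread between pooled samples only, and part of that spread may be technical. In bulk tissue, fewer cells of a type and less RNA per cell cannot be told apart.

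Library totals ran from 198260 to 18310687 counts, with a median of 9232563, and the 4 libraries under 1000000 were all from Desipramine. Region markers went against the labels in 1 treatment. Dbh, which marks noradrenergic cells, had a mean of 255 CPM in FT libraries with the label ILC and of 0.651 CPM in those with the label LConly, whereas in the other treatments it stood between 62.5 and 276 CPM in LConly and between 0.305 and 1.52 CPM in ILC. Tbr1, which marks excitatory neurons of the cortex, averaged 0.485 CPM in FT ILC and 18.1 CPM in FT LConly. Ttr, a choroid plexus gene, stood at 7956 CPM in FT BLA, at 5762 CPM in FT dorDG and at 737 CPM in FT venDG, against 29.8, 31.7 and 9963 CPM in Control. The microglial markers (8 of 8) summed to 1206 to 1360 CPM in Control BLA and 1012 to 1089 CPM in Control venDG, above the means of 448 to 597 CPM and 461 to 578 CPM of the other treatments there. Choroid plexus markers also averaged 6289 CPM in Maltodextrin LConly and 17170 CPM in Probiotics LConly, against 45.8 CPM in Control. Counts of members are therefore given with and without ILC and LConly, and also for 5 regions (CGC, mPOA, NACShell, PLC and Raphe) without BLA, dorDG, ILC, LConly and venDG. Those 5 were not free of such shifts: in FT mPOA the inhibitory neuron markers averaged 681 CPM, against 987 to 1201 CPM in the other treatments, and in FT and Desipramine Raphe the oligodendrocyte markers averaged 70140 and 62800 CPM, against 121300 CPM in Control. Values that rest on the FT libraries of those regions are those of libraries labelled so.

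Promoters were read for 68 of the 80 members, as RefSeq (GRCr8) gives the 250 bases before and the 50 bases after the gene start. Their median GC content was 56.2% and their median number of CpG pairs was 20, against 52.3% and 7 over 27457 rat promoters of the same length. Motifs were searched on both strands. AAGATGGC, a YY1 motif, was found in 15 members (22.1%) and in 3.44% of all promoters, and GCATGCGC, the core of the NRF1 motif, in 9 members (13.2%) and in 2.66%. CCGGAAGT, an ETS motif, was found in 7 members (10.3%) and in 4.01% of all promoters, and TCAAGGTCA, an ERR motif, in Atp5g3 and Sdhd (2.94%) and in 0.412%. No motif overlapped another in the promoters below. The 4 printed promoters belong to the members that the comparisons turn on: Ndufb7, lower in all regions with Desipramine, Sdhb, which changed with several treatments and stood apart in single groups, Cox5a, higher in all regions with Bupropion, and Cox7c, lower in all regions with Probiotics. They lie at chr19:41477242-41477541 on the minus strand (Ndufb7), chr5:158547684-158547983 on the plus strand (Sdhb), chr8:66818034-66818333 on the plus strand (Cox5a) and chr2:18579121-18579420 on the minus strand (Cox7c). Each is written 5′ to 3′ in the sense of its gene, and capitals mark the ETS motif in Ndufb7 (bases 235 to 242) and the NRF1 motif in Sdhb (bases 84 to 91), while none of the 4 motifs was present in the windows of Cox5a and Cox7c.
Ndufb7: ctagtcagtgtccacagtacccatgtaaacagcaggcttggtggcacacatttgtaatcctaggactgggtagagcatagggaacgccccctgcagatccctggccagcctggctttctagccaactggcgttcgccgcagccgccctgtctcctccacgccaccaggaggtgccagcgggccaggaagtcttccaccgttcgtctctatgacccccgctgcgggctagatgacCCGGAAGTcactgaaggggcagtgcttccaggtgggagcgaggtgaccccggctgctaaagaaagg
Sdhb: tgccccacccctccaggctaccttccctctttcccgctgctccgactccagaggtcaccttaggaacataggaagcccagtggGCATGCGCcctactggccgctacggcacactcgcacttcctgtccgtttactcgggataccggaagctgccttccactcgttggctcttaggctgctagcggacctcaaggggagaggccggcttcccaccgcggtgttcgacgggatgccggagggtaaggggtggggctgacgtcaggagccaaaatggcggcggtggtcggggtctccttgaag
Cox5a: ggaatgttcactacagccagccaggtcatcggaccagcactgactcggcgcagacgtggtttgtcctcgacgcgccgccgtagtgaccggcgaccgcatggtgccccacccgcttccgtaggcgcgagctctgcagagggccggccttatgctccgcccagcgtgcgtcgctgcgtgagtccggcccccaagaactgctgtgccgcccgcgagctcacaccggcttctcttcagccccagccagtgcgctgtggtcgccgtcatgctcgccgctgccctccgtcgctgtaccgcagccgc
Cox7c: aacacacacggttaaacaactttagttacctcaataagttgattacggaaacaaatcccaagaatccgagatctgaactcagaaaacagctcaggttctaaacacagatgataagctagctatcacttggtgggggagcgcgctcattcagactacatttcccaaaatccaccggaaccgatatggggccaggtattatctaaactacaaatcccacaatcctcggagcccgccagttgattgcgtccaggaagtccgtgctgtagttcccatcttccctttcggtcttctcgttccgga

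Together the 80 members took a mean share of counts that was lower with each drug and with Probiotics than in Control. Summed over members and averaged over the 10 regions, the 5 Control replicates stood at 43160, 45250, 44070, 44300 and 45150 CPM (44390 ± 857, SD, n = 5) and Maltodextrin at 44200 ± 785 CPM (SD, n = 5). The 5 Probiotics replicates lay between 37090 and 39420 CPM (37920 ± 949, SD, n = 5), below all replicates of Maltodextrin and Control. Desipramine stood at 40560 ± 368 CPM and Bupropion at 42840 ± 294 CPM (SD, n = 5 each), and all replicates of Desipramine lay below those of Control, while the highest Bupropion and the lowest Control replicate met at 43160 CPM. FT stood at 36880, 41870, 41230, 41350 and 43350 CPM, with replicate 1 far below the other 4. Among the 60 groups the summed level was lowest in Probiotics CGC at 3.30% of counts and highest in Control ILC at 5.50%.

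**Figure D1:**
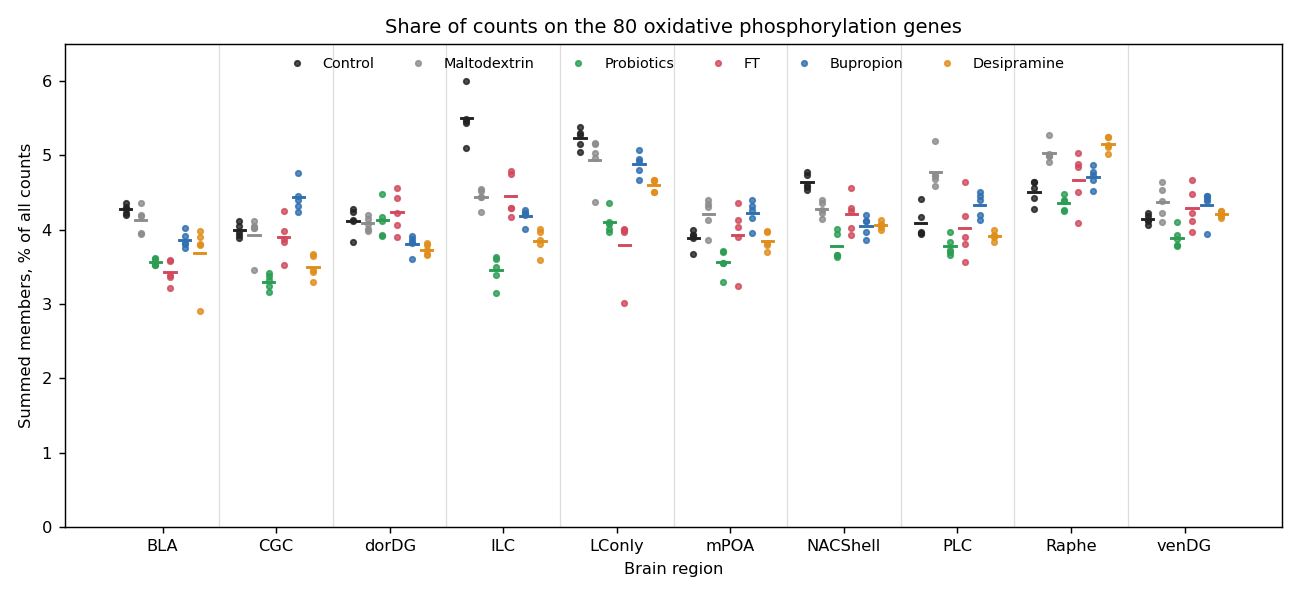
Share of all counts taken by the 80 members (percent, linear axis) in the 60 groups of region and treatment. Points are libraries and bars are group means (n = 5). Control ILC is the highest group at 5.50%, and Probiotics CGC the lowest at 3.30%.

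The drop in the sum was not spread evenly over the complexes. Averaged over the regions, the 4 complex II genes summed to 1395 CPM in Control, 967 CPM in FT, 1094 CPM in Desipramine and 1112 CPM in Probiotics. Complex III summed to 4597 CPM in Control, 3531 CPM in Desipramine and 3662 CPM in Probiotics. Complex IV went the other way in Desipramine, at 9728 CPM against 8964 CPM in Control, and its sum was 9823 CPM in Maltodextrin but 7706 CPM in Probiotics. These sums are carried by the few members with the most reads, so the counts of members below need not follow them.

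Among the untreated regions all members differed: in the 50 Control libraries, 78 of 78 members tested varied between regions at an adjusted p under 0.05 (edgeR), as did 99.3% of all genes. The ratio of the highest to the lowest region mean had a median of 2.18 over the 78 members, from 1.83 in complex III to 2.55 in complex II. ILC held the highest Control level of 35 members and the lowest of 18, and LConly the highest of 20. Isoforms known mainly from other tissues were uneven between regions. Cox4i2, the isoform of subunit 4 known from lung, stood at 11.5 ± 0.916 CPM in CGC, 9.15 ± 1.36 CPM in mPOA and 2.62 ± 0.704 CPM in NACShell (SD, n = 5 here and for the isoforms that follow). The common isoform Cox4i1 ran from 1263 ± 109.5 CPM in dorDG to 2243 ± 71.9 CPM in LConly. Cox8b, an isoform of heart and muscle, stood at 11.7 ± 1.62 CPM in LConly, 9.43 ± 0.935 CPM in venDG and 6.64 ± 1.80 CPM in Raphe and at 0.795 ± 0.290 CPM in ILC. Cox6a2, another muscle isoform, stood at 5.61 ± 0.671 CPM in ILC and 0.598 ± 0.200 CPM in dorDG. The genes Atp5g1, Atp5g2 and Atp5g3 encode the same mature protein, the rotor ring of the ATP synthase. Atp5g1 was highest in ILC at 1001 ± 60.6 CPM against region means of 448 to 589 CPM elsewhere, while Atp5g3 was lowest there at 286 ± 18.7 CPM against 614 to 802 CPM.

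Control ILC stood apart from the other Control regions, and Probiotics dorDG from the other dorDG groups. Ndufa8, an accessory subunit of complex I, stood at 1674, 2401, 1868, 2028 and 1943 CPM in Control ILC, between 346 and 406 CPM in Maltodextrin ILC and at region means of 230 to 662 CPM in the rest of Control. Sdhb, the iron-sulfur subunit of complex II, stood between 1021 and 1269 CPM in Control ILC and between 299 and 354 CPM in Maltodextrin ILC. Atp5g2 and Cox7c, a small subunit of complex IV, were low in the same libraries, Atp5g2 between 56.2 and 76.5 CPM against 181 to 215 CPM in Maltodextrin ILC, and Cox7c between 852 and 1077 CPM against 1846 to 2087 CPM. In none of these genes did the groups overlap. In Probiotics dorDG the same genes stood on the same sides of Maltodextrin dorDG, with Ndufa8 between 830 and 1097 CPM against 222 to 296 CPM, Sdhb between 742 and 883 CPM against 219 to 246 CPM, Atp5g2 between 15.1 and 25.0 CPM against 215 to 222 CPM and Cox7c between 271 and 398 CPM against 1910 to 2143 CPM. Prox1, which marks granule cells of the dentate gyrus, averaged 29.6 CPM in Probiotics dorDG and 68.0 to 88.9 CPM in the other dorDG groups.

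Those 2 differences share no library. Over 78 members, the log2 difference of Control ILC from Maltodextrin ILC and that of Probiotics dorDG from Maltodextrin dorDG had a Pearson r of 0.89, and over 11938 genes above 1 CPM r was 0.74, given here as a description across genes. The groups also differed in other measures. The summed level of the excitatory neuron markers (7 of 8 in the table) was 349 to 379 CPM in Control ILC and 719 to 746 CPM in Maltodextrin ILC, and 377 to 570 CPM in Probiotics dorDG and 1225 to 1314 CPM in Maltodextrin dorDG. The oligodendrocyte markers (8 of 8) summed to 2173 to 2700 CPM and 1902 to 2107 CPM in the ILC groups, and to 3856 to 4498 CPM and 9228 to 10970 CPM in the dorDG groups. Library totals were larger in both, from 13759177 to 17767154 counts in Control ILC against 7917035 to 10297436 in Maltodextrin ILC, and from 9775438 to 18310687 in Probiotics dorDG against 5967446 to 8254582 in Maltodextrin dorDG. The part of cell type makeup and depth in the members' levels was not tested.

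**Figure D2:**
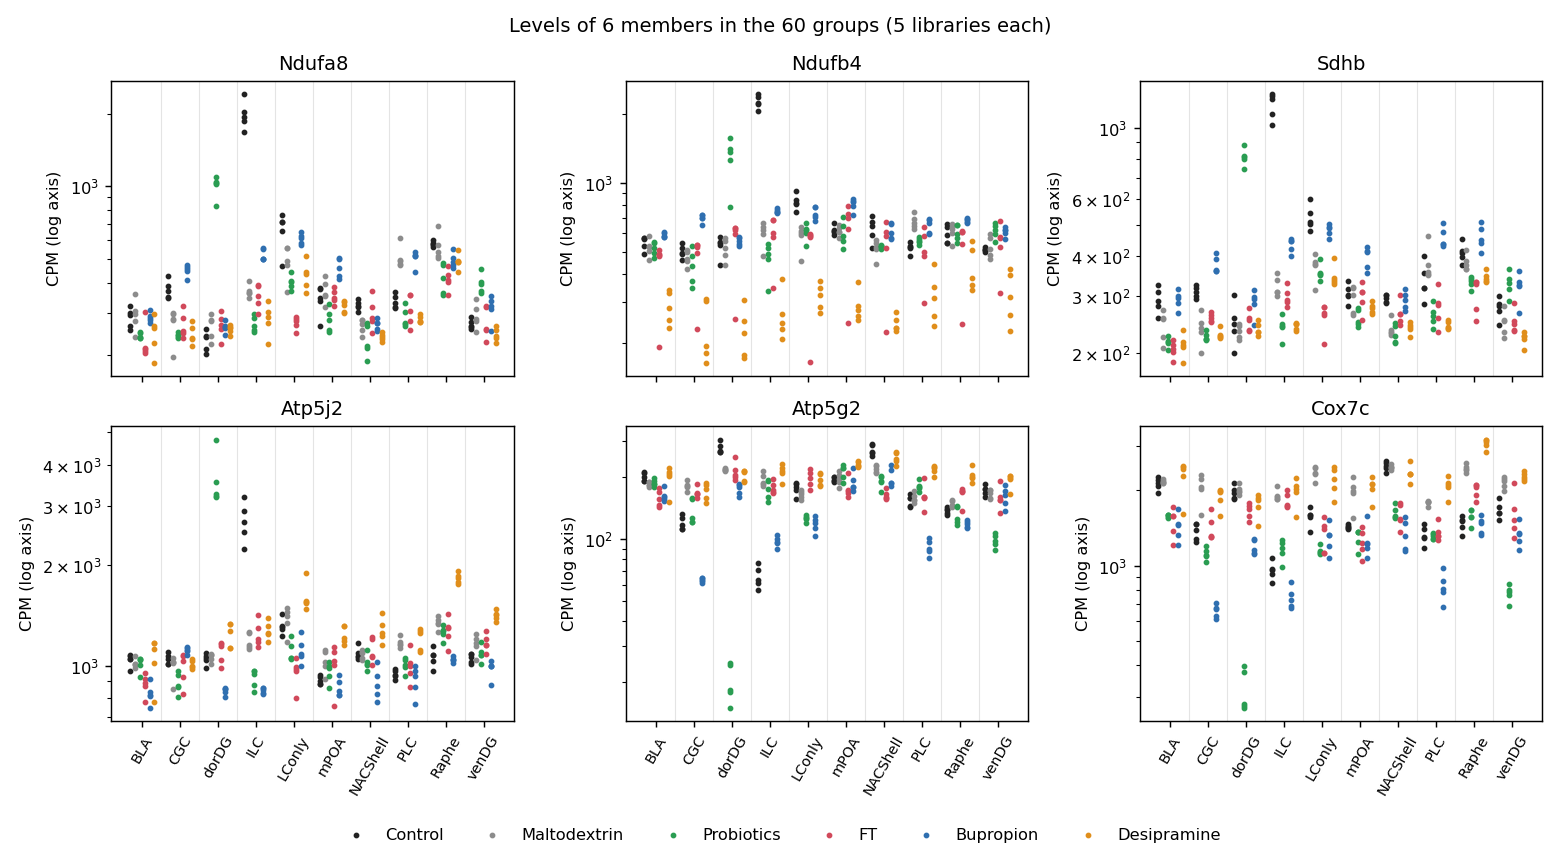
Level of 6 members (Ndufa8, Ndufb4, Sdhb, Atp5j2, Atp5g2 and Cox7c) in CPM on a log axis, by region and treatment. Points are single libraries, 5 for each group, coloured by treatment. Control ILC and Probiotics dorDG lie above nearly all other libraries for Ndufa8, Ndufb4, Sdhb and Atp5j2, and Probiotics dorDG lies lowest for Atp5g2 and Cox7c.

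The 5 comparisons were made by edgeR's quasi-likelihood test, with p-values adjusted by Benjamini-Hochberg over all genes tested and a gene called at an adjusted p under 0.05. Each drug and Maltodextrin were compared with Control, and Probiotics with Maltodextrin. The first 4 comparisons share the Control libraries, Control ILC included, and the last 2 share Maltodextrin, so a like change in several of them is not independent. For each treatment replicate the 10 regions' counts were added up, so a region weighs by its counts of a gene. Many genes of all kinds were called in every comparison, and members' counts are to be read against that background. Replicates of the groups compared could lie apart in CPM for members that were not called. The share of all genes without overlap was not computed, so a lack of overlap does not set a member apart from other genes.

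**Figure D3:**
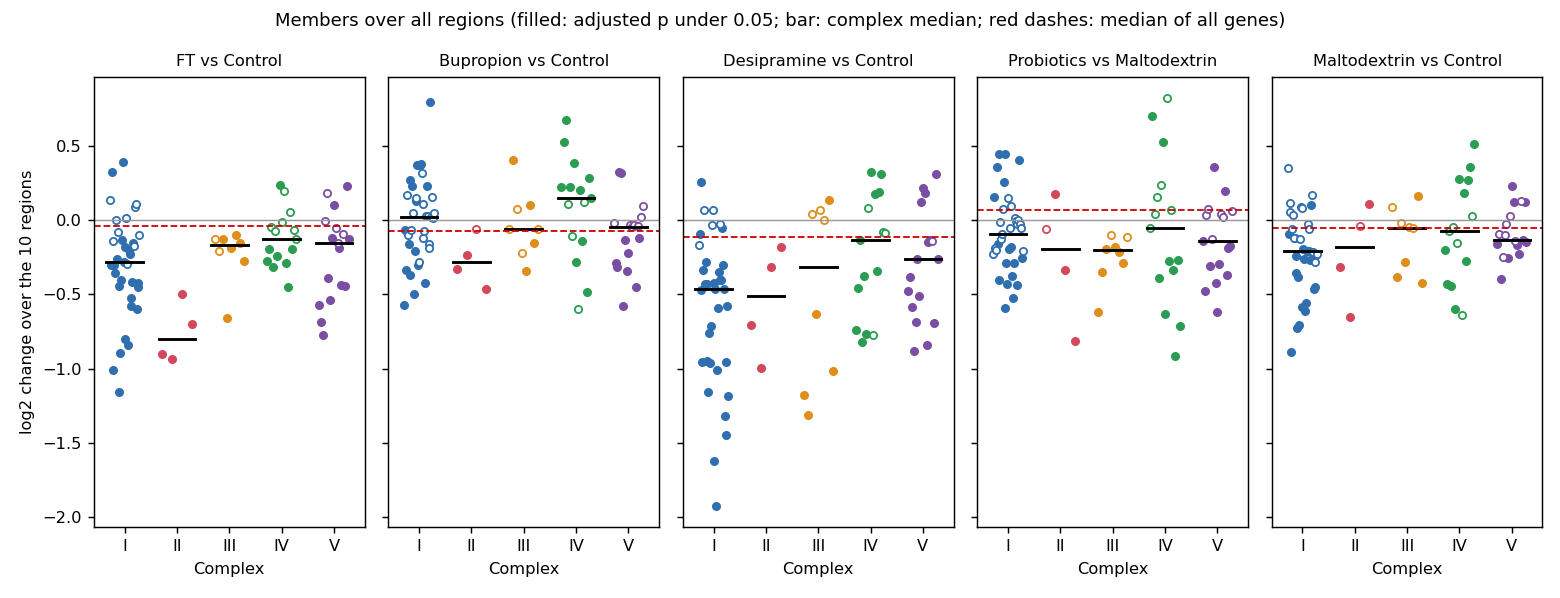
Log2 change of each tested member over all regions, by complex, in the 5 comparisons. Filled points had an adjusted p under 0.05 (edgeR), black bars are the median of a complex and red dashes the median of all genes tested. With Desipramine the complex I median lies at -0.47 against -0.12 for all genes.

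Desipramine was followed by the most calls. Over all regions 56 of 79 members were lower, 10 were higher and 13 were not called, while of all genes tested 44.6% were lower and 26% higher. The median log2 change was -0.40 over members and -0.12 over all genes. Without ILC and LConly, 46 members were lower and 17 higher, against 42.3% and 27.5% of all genes, and in the 5 regions 45 of 78 were lower and 16 higher, against 35.2% and 31.1%. Complex I had 29 lower and 1 higher of 35, complex II 4 lower of 4, complex III 4 lower and 1 higher of 8, complex IV 7 lower and 4 higher of 15, and complex V 12 lower and 4 higher of 17.

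Ndufb7, an accessory subunit of the membrane arm of complex I, fell the most with Desipramine. The Control replicates, as means over the regions, stood at 474.7, 520.3, 556.4, 574.2 and 628.7 CPM and the Desipramine replicates at 140.7, 159.0, 168.3, 179.3 and 210.3 CPM. The groups lay far apart, and the log2 change was -1.93 (SE 0.187, adjusted p = 3.26e-10, edgeR), from -1.15 in BLA to -2.85 in ILC, with a call in 10 of 10 regions. Ndufb4, another accessory subunit of that arm, stood at 700.3, 784.3, 759.6, 750.8 and 773.4 CPM in Control and at 261.5, 279.3, 291.4, 299.4 and 333.5 CPM in Desipramine. Its highest Desipramine replicate was below its lowest Control replicate, and its log2 change was -1.62 (SE 0.138, adjusted p = 2.42e-11, edgeR) and -1.02 without ILC and LConly. Ndufs8, a core iron-sulfur subunit on the electron path, stood at 194.6, 193.4, 207.4, 215.1 and 222.9 CPM in Control and at 78.74, 81.76, 81.18, 94.09 and 105.3 CPM in Desipramine, a log2 change of -1.45 (SE 0.147, adjusted p = 7.97e-10, edgeR) with no overlap. Ndufv1, which carries the NADH site, fell by 0.95 on the log2 scale (SE 0.138, adjusted p = 5.44e-07). Ndufs1, the largest core subunit, had a log2 change of -0.03 (adjusted p = 0.479) with Desipramine, so the core subunits were not all called. In mean log2 CPM over the regions, however, Ndufs1 stood 0.20 above Control, and its replicates did not overlap in CPM. The fitted change and CPM thus differed for this gene.

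In the other complexes Desipramine was followed by lower Sdha, the flavoprotein of complex II, at 272.6, 257.4, 257.8, 271.9 and 275.0 CPM against 384.7, 366.5, 376.6, 371.7 and 375.0 CPM in Control. The replicates of each group lay close together and did not overlap, and the log2 change was -0.70 (SE 0.0406, adjusted p = 8.11e-15, edgeR). Of complex III, Uqcr10, a small subunit, stood at 482.9, 541.9, 553.0, 605.5 and 659.8 CPM with Desipramine and at 1114, 1193, 1205, 1180 and 1193 CPM in Control, again without overlap. The core subunits of complex III divided: Uqcrc1 fell by 0.64 on the log2 scale (SE 0.106, adjusted p = 4.63e-06), and Uqcrfs1, the Rieske iron-sulfur protein, had a log2 change of 0.00 (adjusted p = 0.976), which became 0.12 (adjusted p = 0.00531) without ILC and LConly. In mean log2 CPM over the regions Uqcrfs1 stood 0.21 above Control, with no overlap of replicates in CPM. In complex IV, Cox4i1 fell by 0.74 (adjusted p = 3.95e-10) while the small subunits Cox6c and Cox7c rose by 0.32 (adjusted p = 2.8e-09) and 0.31 (adjusted p = 2.01e-07). The alpha and beta subunits of the catalytic head of complex V, Atp5a1 and Atp5b, fell by 0.48 and 0.38 (adjusted p = 3.24e-08 and 7.08e-09), and Atp5s, placed with complex V by symbol only, rose by 0.31 (adjusted p = 1.51e-06). In all, 14 members were called lower with Desipramine in 10 of 10 regions: Ndufb4, Ndufb7, Ndufb11, Ndufs7, Ndufs8, Ndufv1, Ndufv3, Sdha, Uqcr10, Uqcr11, Uqcrq, Atp5e, Atp5i and Atp5o. That was 14 of the 76 members tested in every region, where 2.72% of all genes were called lower and 2.1% higher in 10 of 10 regions.

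FT was followed by lower complex II most of all. Over all regions 50 of 79 members were lower, 5 higher and 24 not called, against 35% lower and 26.9% higher of all genes, with a median of -0.20 against -0.04. The counts lower and higher were 23 and 2 in complex I, 4 and 0 in complex II, 6 and 0 in complex III, 7 and 1 in complex IV and 10 and 2 in complex V. Without ILC and LConly, 30 members were lower and 9 higher, against 32.4% and 25.8% of all genes, and the members' median rose to -0.06. In the 5 regions 33 of 78 were lower and 8 higher, against 29% and 29.8%. Both counts of lower members lay nearer to their background.

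Sdha stood at 204.8, 241.9, 240.0, 236.6 and 238.1 CPM in FT, below the lowest Control replicate at 366.5 CPM. Its log2 change with FT was -0.90 (SE 0.0407, adjusted p = 1.91e-17, edgeR), it was called in 10 of 10 regions, from -0.44 in dorDG to -1.39 in ILC, and it stood at -0.76 without ILC and LConly. Ndufs1 stood at 165.3, 148.3, 153.9, 154.2 and 137.7 CPM in FT and at 201.5, 195.8, 199.7, 202.6 and 195.1 CPM in Control, and fell by 0.58 (SE 0.0313, adjusted p = 9.58e-16), also with a call in every region, and Sdhd, a membrane anchor of complex II, was the third such member, against 1.05% of all genes. Atp5b, the catalytic beta subunit of the ATP synthase, stood between 1994 and 2199 CPM in FT and between 2868 and 3250 CPM in Control, a log2 change of -0.68 (SE 0.0436, adjusted p = 4.2e-14). Atp5a1 fell by 0.57 (adjusted p = 1.45e-09) and Uqcrc1 by 0.66 (adjusted p = 3.41e-06). Sdha, Ndufs1, Atp5b, Atp5a1 and Uqcrc1 did not overlap between the groups, and each was also called lower without ILC and LConly. Cox5a, which was not called (adjusted p = 0.479, edgeR), did not overlap either.

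For the members with the largest fall under FT, much of it lay in ILC and LConly. Ndufa8 stood at 340.2, 295.5, 283.4, 283.1 and 313.8 CPM in FT and at 519.6, 603.6, 520.7, 537.4 and 509.2 CPM in Control, without overlap, and its log2 change of -1.16 (SE 0.0579, adjusted p = 1.73e-16, edgeR) became -0.36 (adjusted p = 1.13e-05) without ILC and LConly. In single regions Ndufa8 ran from -2.94 in ILC to 0.32 in dorDG. Ndufa12, an accessory subunit of complex I, went from -1.01 to -0.35, and Sdhb from -0.94 to -0.39. Of the core members, Cox4i1 changed by -0.27 (adjusted p = 0.00159) and by -0.13 (adjusted p = 0.127) without the 2 regions. Ndufb2, a small subunit of complex I, was the member with the largest rise: it stood at 333.4, 241.8, 240.9, 242.4 and 260.3 CPM in FT and at 161.8, 188.5, 163.6, 175.5 and 179.5 CPM in Control. All FT replicates were above all Control replicates, replicate 1 by most, and the log2 change was 0.39 (SE 0.0737, adjusted p = 3.59e-05) and 0.62 without ILC and LConly. Ndufa10l1 rose by 0.32 (adjusted p = 0.00281), which was 0.18 (adjusted p = 0.00832) without FT replicate 1. Cox6b2 rose by 0.23 (adjusted p = 0.0106), which was 0.03 (adjusted p = 0.823) in the 5 regions.

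FT replicate 1 differed from the other FT replicates in all regions. In 10 of 10 regions, 20 of 78 members lay below the other 4 FT libraries and 5 above them, against 10.4% below and 12.1% above among 11938 genes. Uqcr10 stood at 409.4 CPM in FT replicate 1 and at 1366, 1396, 1338 and 1424 CPM in the other 4, and Ndufb7 at 192.7 CPM against 616.1, 557.6, 608.1 and 661.8 CPM. Cox7b was high, at 544.4 CPM against 332.3 to 340.5 CPM. Totals in FT replicate 1 were between 3511756 and 4807308 counts, against 4917517 to 12340879 in the other 4. Without FT replicate 1, 48 members were lower and 7 higher, 37.6% and 28.4% of all genes were, and the members' median was -0.19. The log2 difference of FT replicate 1 from the other FT replicates and that of Desipramine from Control, which share no library, had r = 0.75 over 78 members and r = 0.61 over 11938 genes.

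Above 1 CPM, the 10 members that varied most between treatment replicates of a group included 9 that were lower with Desipramine, the exception being Ndufa1. Level was taken here as log2 of the summed count over the count expected from depth. Its SD within treatments was 0.345 for Ndufb7, 0.342 for Uqcr10, 0.32 for Ndufa1, 0.272 for Ndufs8, 0.261 for Atp5d, 0.26 for Ndufv1, 0.255 for Uqcr11, 0.252 for Ndufb4, 0.249 for Ndufs7 and 0.235 for Ndufv3. Over the 30 treatment replicates, deviations from the group mean went with those of Ndufb7 at r = 0.984 for Ndufv3, 0.979 for Ndufs8, 0.977 for Ndufb4 and 0.966 for Uqcr10. These values share libraries and depth, and FT replicate 1 weighs heavily in them. Its Ndufb7 level was -1.50, against 0.07 to 0.38 in the other FT replicates. The SD and r without FT replicate 1 were not computed. In each of those 10 members but Ndufa1, FT replicate 1 lay below the other FT replicates. In Ndufa1 it lay above them, at 14.04 CPM against 6.008 to 6.5 CPM.

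**Figure D4:**
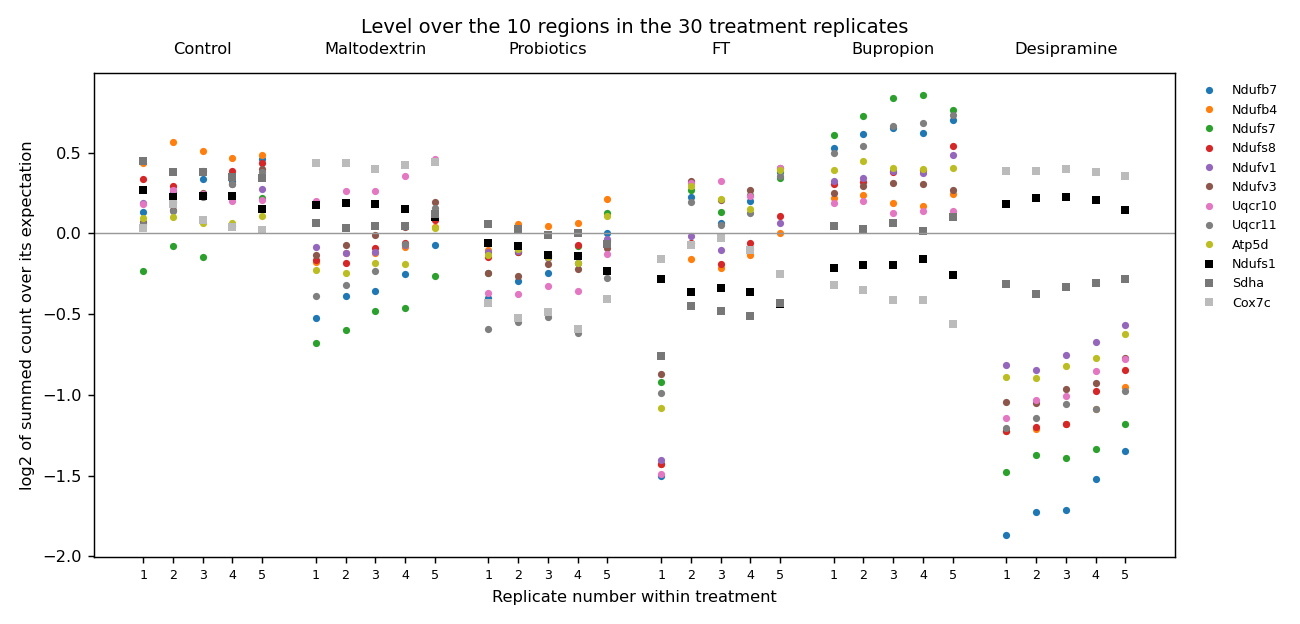
Level of 12 members over the 10 regions in the 30 treatment replicates, as log2 of the summed count over the count expected from the depth of each region. Round points are Ndufb7 and 8 members that varied with it, and squares are Ndufs1, Sdha and Cox7c. FT replicate 1 lies below the other FT replicates for all round symbols. It falls within the Desipramine range for Ndufb7, Ndufv3 and Uqcr11, above it for Ndufs7 and below it for Uqcr10, Ndufv1, Ndufs8, Ndufb4 and Atp5d.

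Bupropion moved members in both directions. Over all regions 20 of 79 members were higher and 25 lower, against 21.6% and 36.5% of all genes, with medians of -0.04 and -0.07. Complex IV had 8 higher and 3 lower of 15, and complex I had 8 higher and 9 lower of 35. Complex II had 3 lower of 4, and complex V 8 lower and 2 higher of 17. Without ILC and LConly, 35 members were higher and 14 lower, against 22% and 32.3% of all genes, and in the 5 regions 38 of 78 were higher and 13 lower, against 24.1% and 26.2%. In CGC 46 of 78 members were higher and 12 lower, against 24.5% and 27.1% of all genes. PLC had 38 higher and 7 lower, against 22.8% and 24.3%, and mPOA 33 and 4 of 77, against 20.7% and 18.6%. In ILC 18 were higher and 50 lower, where 36.6% and 34.6% of all genes were.

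Cox5a, a subunit of complex IV, rose in all 10 regions with Bupropion. Its Control replicates stood at 338.2, 349.0, 326.1, 334.6 and 328.2 CPM and its Bupropion replicates at 502.1, 546.5, 563.5, 569.0 and 495.2 CPM. The lowest Bupropion replicate was well above the highest Control replicate, and the log2 change was 0.67 (SE 0.0548, adjusted p = 2.48e-11, edgeR), from 0.46 in dorDG to 1.29 in CGC. Ndufs7, a core iron-sulfur subunit of complex I, stood at 186.4, 200.2, 219.1, 219.2 and 206.1 CPM against 103.8, 113.9, 110.8, 125.8 and 139.8 CPM, a rise of 0.79 (SE 0.135, adjusted p = 1.18e-05) without overlap. Cox4i2 rose by 0.53 (adjusted p = 2.88e-10). Cox7c stood at 1243, 1195, 1154, 1142 and 1015 CPM with Bupropion and at 1588, 1728, 1651, 1597 and 1609 CPM in Control, with no overlap and a fall of 0.48 (SE 0.0423, adjusted p = 1.05e-10). Ndufs1 fell by 0.43 (adjusted p = 2.9e-12) and was called lower in 10 of 10 regions, as were 0.528% of all genes, while 0.686% were called higher in all 10, as was Cox5a. Atp5f1 and Ndufa1 fell by 0.58 and 0.57 (adjusted p = 8.91e-10 and 0.0119), but at means of 4.8 and 6.7 CPM their reads may be shared with near-identical copies, and Ndufa1 was not called without Control replicate 4 (adjusted p = 0.0754). Sdhb fell by 0.23 (adjusted p = 0.000917) with all regions and rose by 0.23 (adjusted p = 0.00183) without ILC and LConly.

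Probiotics, set against their carrier Maltodextrin, were followed by lower members where the other genes leaned higher. Of 79 members 36 were lower and 11 higher over all regions, whereas 22.5% of all genes were lower and 33.3% higher, and the medians were -0.14 and 0.07. Without ILC and LConly the counts were 33 lower and 14 higher, against 22.8% and 33.4%. Complex III had 6 lower and 0 higher of 8, complex IV 7 and 2 of 15, complex V 9 and 2 of 17, complex I 12 and 6 of 35 and complex II 2 and 1 of 4. The members' sum over regions was below that of Maltodextrin in every replicate.

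Cox7c stood at 2184, 2167, 2084, 2119 and 2074 CPM in Maltodextrin and at 1255, 1153, 1200, 1147 and 1192 CPM in Probiotics. The groups were tight and far apart, and the log2 change was -0.91 (SE 0.0425, adjusted p = 1.45e-16, edgeR), called in 10 of 10 regions from -0.51 in BLA to -2.56 in dorDG. Sdhd stood at 182.3, 179.6, 175.4, 178.1 and 171.9 CPM in Maltodextrin and at 112.3, 106.5, 107.1, 104.7 and 93.45 CPM in Probiotics, with a change of -0.82 (SE 0.0313, adjusted p = 3.08e-18). All Probiotics replicates of Sdhd were below all Maltodextrin replicates, and its changes in single regions lay between -0.63 in PLC and -1.24 in venDG. Cox6c, Ndufa4, Ndufb3, Ndufb11, Ndufc2, Ndufs1 and Uqcrh, the hinge protein of complex III, were also called lower in 10 of 10 regions. That made 9 of 76 members, against 1.71% of all genes. Atp5b fell by 0.48 (adjusted p = 1.73e-10) and Uqcrfs1 by 0.21 (adjusted p = 2.22e-06). Some isoforms rose. Cox4i2 stood at 7.538, 7.598, 7.297, 7.409 and 7.324 CPM against 4.756, 4.585, 4.325, 4.283 and 4.460 CPM, without overlap, a rise of 0.70 (SE 0.0505, adjusted p = 1.47e-12). Cox6b2 rose by 0.52 (adjusted p = 1.56e-06) and Ndufa4l2 by 0.44 (adjusted p = 0.000178), while Cox8b fell by 0.71 (adjusted p = 3.05e-11).

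Probiotics dorDG pulled the all-region value of some members. Sdhb was called higher over all regions, at 0.18 (adjusted p = 0.0108), yet it was below Maltodextrin in 7 of 10 regions, with 1.89 in dorDG and -0.75 in PLC. Atp5g2 fell by 3.34 on the log2 scale in dorDG and changed by 0.02 in mPOA. In dorDG itself 37 members were higher and 29 lower of 77, against 33.3% and 35.4% of all genes. PLC had 2 higher and 63 lower of 78, against 27.4% and 19.6%, ILC 2 and 61, against 26.1% and 24.6%, and Raphe 1 and 49, against 19.6% and 21.6%. In the 5 regions Sdhb changed by -0.36 (adjusted p = 3.23e-05), and 61 of 78 members were lower and 3 higher, against 24.6% and 26.6% of all genes.

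Maltodextrin differed from water in the members as well. Over all regions 36 of 79 members were lower and 11 higher, against 30.5% and 18% of all genes, with medians of -0.15 and -0.05. Without ILC and LConly only 12 were lower and 18 higher, against 28.4% and 18.8%, so the summed lean to lower members was lost without those regions. The remaining regions went both ways. CGC had 40 lower and 8 higher of 78, against 22.7% and 23.5% of all genes. NACShell had 51 and 0, against 24.8% and 21.6%, and PLC 5 and 44, against 26.3% and 22.8%. In the 5 regions 17 of 78 were lower and 19 higher, against 26.4% and 27.1%. Complex I had 19 lower and 1 higher of 35, complex IV 5 and 5 of 15. Cox7c rose by 0.35 (adjusted p = 1.12e-07), Cox6c by 0.28 (adjusted p = 2.69e-07) and Cox7b by 0.27 (adjusted p = 0.00388). Ndufa12 stood at 71.49, 75.66, 75.54, 79.03 and 87.54 CPM against 102.2, 132.3, 117.4, 134.6 and 151.0 CPM in Control and fell by 0.89 (SE 0.0986, adjusted p = 3.38e-08, edgeR). It did not overlap, but the change was -0.24 (adjusted p = 0.0497) without ILC and LConly. Ndufb10 went from -0.71 to -0.37 and Sdhb from -0.66 to -0.15 in the same way.

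Region by region, the members leaned lower in most regions with Desipramine, FT and Probiotics. Over 778 member-by-region tests, 428 were lower and 100 higher with Desipramine, against 27.9% and 26.4% of all gene-by-region tests. FT had 311 lower and 95 higher, against 26.3% and 27.1%, and Probiotics 358 and 92, against 21.1% and 21.7%. Bupropion had 189 lower and 215 higher, against 23.4% and 22.9%, and Maltodextrin 208 and 114, against 19.5% and 18.4%. With Desipramine, lower members outnumbered higher ones in 10 of 10 regions, from 24 against 10 in dorDG (17.3% and 15.8% of all genes) to 54 against 0 in LConly (27.5% and 26.9%) and 60 against 6 in ILC (33.9% and 37.7%). With FT they did so in 9, and dorDG was the exception with 28 higher and 4 lower of 77, where 17.8% of all genes were higher and 11.5% lower and the summed choroid plexus markers stood at 5821 CPM on average. For FT, 50 lower tests were in ILC (37.9% of all genes) and 66 in LConly (37.5%), where Dbh and Tbr1 went against the labels. In mPOA 17 of 77 were lower (23.3%) and in PLC 18 of 78 (21.3%), near the share of all genes. Lower counts were 28 in CGC (20.5%), 30 in NACShell (21.1%), 25 in venDG (25.3%), 37 in Raphe (30.1%) and 36 in BLA (33%), of 78 each. In Maltodextrin dorDG edgeR called 0 of 77 members (8 at an unadjusted p under 0.05) and DESeq2 called 1, and by edgeR 0.612% of all genes were higher and 0.327% lower. With Maltodextrin, NACShell had 51 lower and 0 higher, against 24.8% and 21.6% of all genes, and PLC had 5 lower and 44 higher, against 26.3% and 22.8%.

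The change with treatment differed between regions for nearly all members, as it did for most genes. The test of the 9 region-by-treatment terms called 78 of 78 members with FT (92.6% of all genes), 78 with Bupropion (90.2%), 77 with Desipramine (87.2%), 75 with Probiotics (82.3%) and 77 with Maltodextrin (89.8%). Cox8b gave the widest range, with FT at 2.65 in ILC, 2.42 in BLA and 2.22 in dorDG and at -3.34 in LConly and -2.19 in venDG. These 5 regions are those where Dbh, Tbr1 or Ttr in FT departed from Control, and the part of tissue makeup in the Cox8b values was not tested.

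**Figure D5:**
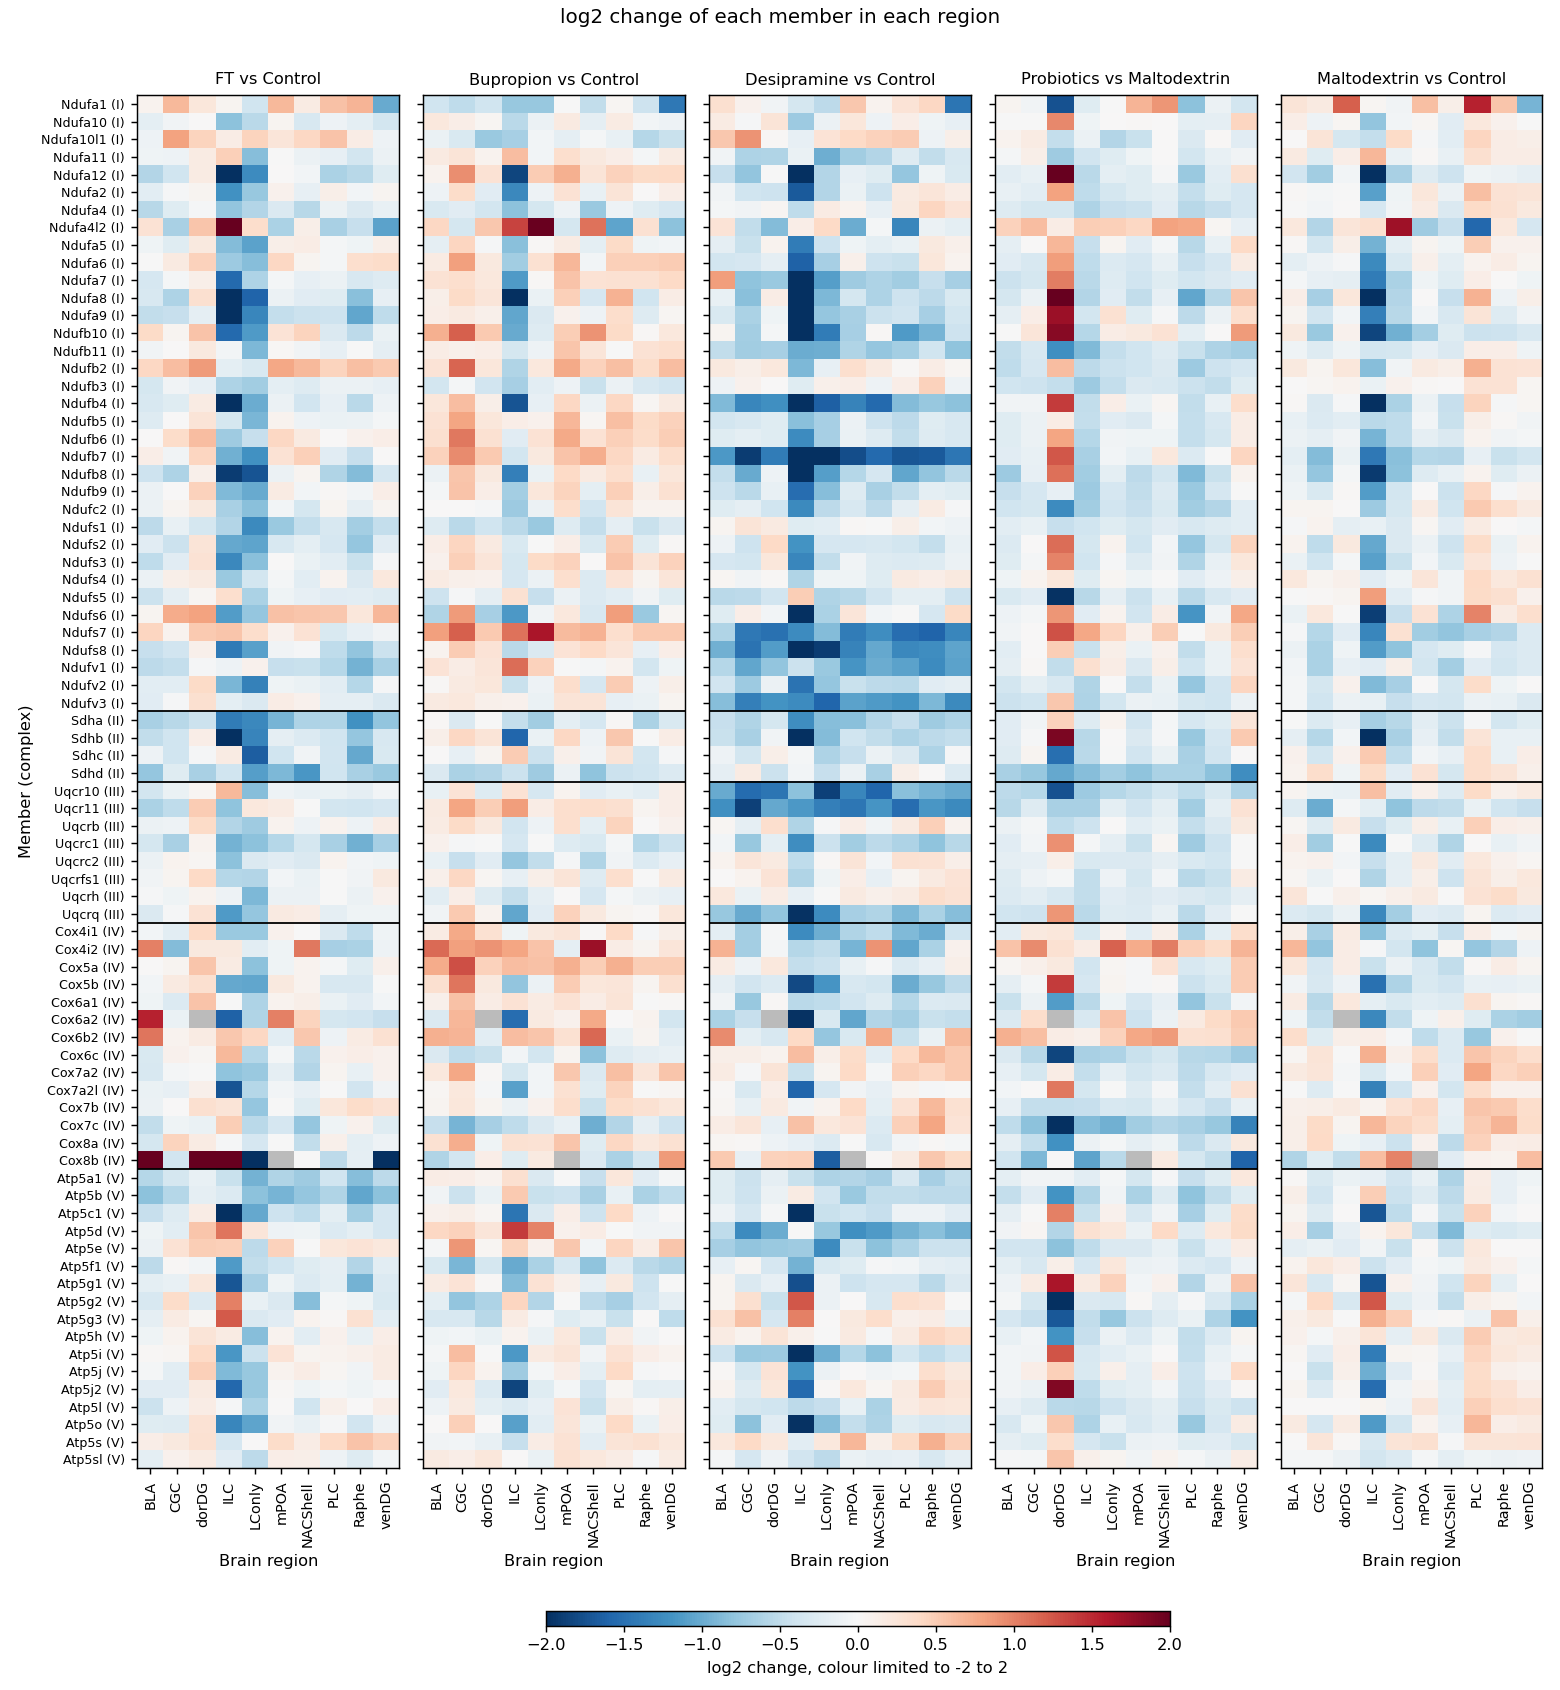
Log2 change of 78 members (rows, by complex) in the 10 regions (columns) for the 5 comparisons. Colour runs from -2 to 2 on the log2 scale and is capped there, and grey cells were not tested. With Desipramine, 60 members were called lower in ILC and 24 in dorDG.

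Genes around the respiratory chain were taken from lists that did not use these members. Their counts are from the all-region fit, where 35% of all genes were lower and 26.9% higher with FT, 44.6% and 26% with Desipramine, 36.5% and 21.6% with Bupropion, 22.5% and 33.3% with Probiotics and 30.5% and 18% with Maltodextrin. Of 18 citric acid cycle genes, 16 were lower and 1 higher with FT, as were 16 and 1 without ILC and LConly. With Desipramine 13 were lower and 3 higher, or 9 and 4 without those regions. With Bupropion 14 were lower and 2 higher, or 13 and 2, led by Dld at -0.38 (adjusted p = 2.66e-12). Of 16 glycolytic genes, 14 were lower and 1 higher with FT, 15 and 0 with Desipramine, 13 and 0 with Maltodextrin, 6 and 1 with Bupropion and 2 and 3 with Probiotics. Without ILC and LConly the glycolytic counts lower were 14, 15, 13, 6 and 1 in the same order. Pfkp, a phosphofructokinase, fell by 0.76 with FT (adjusted p = 4.93e-19), and Ldhb, a lactate dehydrogenase subunit, fell by 1.18 with Desipramine (adjusted p = 1.13e-15). Of 20 genes of the outer membrane and protein import, 16 were lower and 1 higher with FT and 17 and 1 with Desipramine, or 16 and 0 and 13 and 3 without ILC and LConly, with Vdac3, a porin, at -0.86 and -0.59 (adjusted p = 1.74e-19 and 1.46e-15).

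Assembly factors and regulators were counted in the same fit. Of 37 assembly factors, 25 were lower and 4 higher with FT, and 20 lower and 11 higher with Desipramine, where Coa3, a complex IV factor, fell by 1.37 (adjusted p = 7.65e-15). Bupropion had 18 lower and 4 higher, Probiotics 20 and 5 and Maltodextrin 16 and 6. Without ILC and LConly the assembly factors had 19 lower and 8 higher with FT, 15 and 13 with Desipramine, 13 and 8 with Bupropion, 18 and 6 with Probiotics and 5 and 8 with Maltodextrin. Of 18 regulators of mitochondrial biogenesis, 8 were higher and 4 lower with FT and 9 higher and 4 lower with Desipramine, or 8 and 4 and 9 and 6 without ILC and LConly. Nrf1 fell by 0.52 with Desipramine (adjusted p = 2.33e-08) and by 0.44 with Bupropion (adjusted p = 6.46e-07), and Esrrg, an oestrogen-related receptor, rose by 1.08 with Probiotics (adjusted p = 3.42e-13). Cycs, which encodes cytochrome c, fell by 0.71 with FT (adjusted p = 1.48e-16), 0.38 with Desipramine (adjusted p = 1.56e-10) and 0.23 with Bupropion (adjusted p = 1.63e-06). Markers of other cells moved too: 7 of 8 microglial markers were lower with FT and 7 with Desipramine, and 7 of 8 choroid plexus markers were higher with FT. Of 8 oligodendrocyte markers, 7 were lower and 1 higher with Desipramine and 5 lower and 3 higher with FT. The 5 regions leave out Control BLA and Control venDG with their high microglial sums. There 7 microglial markers were lower with FT and 6 with Desipramine, and 3 choroid plexus markers were higher and 2 lower with FT. Oligodendrocyte markers there were lower in 7 of 8 with FT (median log2 change -0.86) and in 7 with Desipramine (-0.75). The part of these cells in the members' changes was not tested.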

How the data were processed

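Total RNA of pooled brain punches was sequenced as paired ends from a stranded kit, per the labels' protocols. The authors deposited raw counts per gene symbol, made with FastQC, STAR (on rn6) and HTSeq per the submitters' processing notes. Their versions: not given in the sources used here. All 300 columns were matched to labelled samples (0 were left over), and no library was left out.

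Counts were fitted in edgeR (version 4.0.16, under R 4.3.3): genes passed filterByExpr, libraries were scaled by TMM, and the test was the quasi-likelihood F test, with Benjamini-Hochberg adjustment over all genes tested. For all regions, each treatment replicate's 10 libraries were added up (30 sums) with a gene-wise offset for depth. Single regions were fitted on 30 libraries, and differences between regions on 100 libraries with treatment replicate and region as terms. CPM came from raw totals, so ratios of CPM and fitted changes can differ. No transcript lengths were used, so levels are not compared between genes. The alternatives were DESeq2 1.42.0, limma 3.58.1 on region means, other scalings, filters and controls, fewer regions, a replicate block, and each replicate left out in turn. The methods were tested on simulated data.

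Members were chosen by symbol, and members, lists and tests were chosen with earlier results of these data known. Named members were, in each comparison, the 3 higher and 3 lower called members with the largest log2 change, a mean log2 CPM over 0 and one sign in 8 or more of 10 regions, plus a core list. Further named were isoform pairs, the 3 members with the smallest p for a difference between regions, and the 2 called genes with the smallest p of each pathway list. Members called in all regions, the members of Control ILC and Probiotics dorDG, Uqcr10 and Cox7b were named after their values were seen.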

Additional observations from a re-analysis of the deposited data

Results flagged for a closer look

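In 8 of the 60 groups 1 of the 5 libraries stood apart in the summed CPM of the 80 members, by a gap to its neighbour above 0.71 of the group's range, and chance alone gives about 1 in 20. The low libraries were Bupropion ILC replicate 1 at 40100 CPM (the others at 42020 to 42630), Bupropion venDG replicate 1 at 39370 (43880 to 44560), Desipramine BLA replicate 3 at 29020 (37980 to 39840), FT LConly replicate 1 at 30150 (39640 to 40080), Maltodextrin CGC replicate 3 at 34580 (40160 to 41120) and Maltodextrin LConly replicate 1 at 43750 (49580 to 51640). The high ones were Maltodextrin PLC replicate 5 at 51870 (45900 to 47390) and Maltodextrin Raphe replicate 5 at 52770 (49070 to 50140). Desipramine BLA replicate 3 was also the shallowest library, at 198260 counts.

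By the same measure, single members of the 78 above 1 CPM stood apart in treatment replicates averaged over the regions. The share of all genes that did so was not computed. FT replicate 1 stood apart in other genes too: of 11938 genes, 10.4% lay below and 12.1% above the other FT replicates in 10 of 10 regions. Among the members FT replicate 1 was low for 23 and high for 13, and Probiotics replicate 5 was low for 2 and high for 15. The other replicates had few: FT replicate 2 was low for 1, Bupropion replicate 5 low for 2 and high for 1, Desipramine replicate 1 high for 2, Desipramine replicate 3 high for 1, Maltodextrin replicate 1 low for 1 and high for 2, Maltodextrin replicate 5 low for 1 and high for 1, Control replicate 1 low for 1, Control replicate 2 high for 2 and Control replicate 4 high for 1.

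The change with treatment differed between regions for 78 members with FT, 78 with Bupropion, 77 with Desipramine, 75 with Probiotics and 77 with Maltodextrin, as given above beside the share of all genes. The smallest adjusted p-values (edgeR) belonged to few members. With FT they were Atp5c1 (2.23e-49, from -2.17 in ILC to 0.14 in dorDG), Ndufa9 (5.38e-47) and Cox7a2l (8.23e-44). With Bupropion they were Atp5c1 (1.24e-47, from -1.46 in ILC to 0.40 in PLC), Ndufb4 (3.35e-42) and Cox7a2l (3.82e-41), and with Desipramine Atp5c1 (2.28e-43, from -2.13 in ILC to -0.02 in dorDG), Cox7a2l (7.43e-41) and Sdhb (1.32e-40). With Maltodextrin they were Atp5c1 (1.89e-47, from -1.70 in ILC to 0.46 in PLC), Cox7a2l (5.41e-44) and Ndufa9 (2.06e-43). These 4 comparisons share the Control ILC libraries. With Probiotics they were Atp5g2 (7.74e-51, from -3.34 in dorDG to 0.02 in mPOA), Ndufa9 (4.31e-49, from -0.52 in PLC to 1.71 in dorDG) and Atp5c1 (6.91e-41).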

How the results depend on the processing

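Of 222 counts recomputed under the alternatives, 221 stayed within 1.5 times the reported count, and the exception was Maltodextrin, with 30 members called without ILC and LConly against 47. Each count took both directions together, so a shift between higher and lower members does not show in it. The reported counts for differences between regions, at 75 to 78 of 78, lay near their ceiling and had little room to change. Of 1432 recomputed changes of 77 named results, 1367 kept their side of the threshold, 40 lost and 19 gained a call, and 6 called changes turned. A change called in neither fit could switch sign and still count as kept. Cox5a with FT did so, from -0.046 to 0.035 without ILC and LConly. The 6 that turned were FT Uqcrfs1 at 0.047 (adjusted p = 0.266) and Bupropion Sdhb at 0.23 (adjusted p = 0.00183) without ILC and LConly, Bupropion Sdhb at 0.27 (adjusted p = 0.000822) and Probiotics Sdhb at -0.36 (adjusted p = 3.23e-05) in CGC, mPOA, NACShell, PLC and Raphe only, and Bupropion Sdhb at 0.0065 (adjusted p = 0.933) with limma weighing regions the same and at 0.093 (adjusted p = 0.1) against Control and Maltodextrin pooled. The cause was not tested. The Bupropion split of 20 higher and 25 lower was 33 and 21 with pooled controls, 21 and 17 with limma and 38 and 13 in those 5 regions. Leaving out 1 replicate at a time gave 50 to 57 members called with FT, 39 to 46 with Bupropion, 63 to 66 with Desipramine, 43 to 51 with Probiotics and 42 to 50 with Maltodextrin. The call of Atp5a1 with Probiotics was lost without any 1 of 9 replicates (adjusted p up to 0.127), and that of Cox5a with Desipramine without Desipramine replicate 4 (adjusted p = 0.0557), Control replicate 1 (0.062) or Control replicate 2 (0.0926). Same-numbered deviations correlated at -0.103 to 0.392, above 0.1 in 15 of 25 pairs but not in all 5 pairs of any comparison. By that rule the main fit did not pair samples by number. Yet the number with the highest correlation was the sample's own in 17 of 25, more than equal odds for each number would give. With the number as a replicate block, members called were 58 against 55 with FT, 48 against 45 with Bupropion, 66 against 66 with Desipramine, 50 against 47 with Probiotics and 50 against 47 with Maltodextrin. Depth limits the low members most, and the shallowest library held 198260 counts.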

Other observations

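The marker lists of other cells moved over all regions as well, in the same edgeR fit and at an adjusted p under 0.05. Of all genes tested, 35% were lower and 26.9% higher with FT, 44.6% and 26% with Desipramine and 36.5% and 21.6% with Bupropion. With Probiotics 22.5% were lower and 33.3% higher, and with Maltodextrin 30.5% and 18%. The marker counts are to be read against those shares. Of 10 neuronal markers, 5 were higher and 3 lower with FT, 6 and 1 with Bupropion, 3 and 4 with Desipramine, 6 and 1 with Probiotics and 4 and 3 with Maltodextrin. Of 7 excitatory neuron markers tested, 4 were higher and 2 lower with FT and 2 higher and 3 lower with Desipramine, and of 6 inhibitory ones 4 were higher and 1 lower with Bupropion. Astrocyte markers divided, with 4 higher and 4 lower of 8 under Desipramine. Of 8 vessel markers 6 were lower and 1 higher with FT, 6 and 1 with Desipramine and 5 and 1 with Bupropion. Microglial markers were lower with Maltodextrin in 7 of 8, and choroid plexus markers were higher in 7 of 8 with Bupropion and with Maltodextrin, or 7 and 3 without ILC and LConly and 3 and 2 in CGC, mPOA, NACShell, PLC and Raphe only. These comparisons share control libraries as above, and the part of these cells in the members' values was not tested.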
